A study of Homo sapiens with 16 samples.

Results

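Cells stimulated with the gliadin peptide p31-43 were compared with cells kept in medium, on 8 of the 16 arrays of the study, 4 of p31-43 and 4 of medium (MED-CTL). These arrays were chosen by their titles. All 16 arrays held RNA of Caco-2, an epithelial line derived from a human colon carcinoma, taken while undifferentiated, on the third day after seeding and in medium with 1% fetal calf serum. The p31-43 cells received a synthetic peptide of 13 residues, 5 of them glutamine and 4 proline, at 150 µg/ml for 6 h, and the MED-CTL cells were kept for 6 h in the same medium with nothing added. The other 8 arrays held cells given pepsin-trypsin digested gliadin (PT-G) or the blank digest of the same heat-inactivated enzymes (PT), and they served here to estimate the spread and for a few comparisons. Every flask was emptied with trypsin before RNA extraction, so the controls carry that handling too. The 4 cultures of a condition came from 4 independent experiments with cells of different passage, all of 1 cell line, and a control peptide is not analysed here.

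Gliadin is a storage protein of wheat, and its fragments drive coeliac disease in people who carry the matching HLA molecules. The peptide p31-43 is not known as a T-cell epitope. It has been described instead as acting on epithelial cells directly, by accumulating in early endosomes and delaying their maturation, which prolongs signalling of the epidermal growth factor (EGF) receptor, and by raising interleukin-15, stress ligands, tissue transglutaminase and NF-kB activity. The comparison asks which of these programmes changed in RNA level after the stimulation, and how large a change the 8 arrays leave possible.

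Without its control spots an array held 43376 of 45015 spots, for 41000 probes. The values are log2 median foreground intensities, quantile-normalised, and averaged per probe. A difference is the mean of the p31-43 arrays minus the mean of the MED-CTL arrays on that scale, so that 1 is a doubling. Of 40982 probes tested, 26554 (64.8%) were well above background on all 8 arrays, by the mark of the image analysis, and are called well expressed below. The median foreground of an array was 153 to 278 for MED-CTL and 248 to 380.5 for p31-43, over a median local background of 49 to 54 and 49 to 58, and 30126 to 33947 and 30099 to 31739 spots were well above background. Enterocyte and epithelial markers fitted the label, with EPCAM, KRT8, KRT18, VIL1, CDH1, CDX2, HNF4A and CDH17 well above background on all 8 arrays, as were 22 of the 24 enterocyte genes listed. The summed level of the 24 was 19.44 to 19.63 (log2) on the MED-CTL arrays and 19.43 to 19.59 on the p31-43 arrays. Of 12 immune markers 7 were well above background on all 8 arrays and 3, PTPRC and MS4A1 among them, on none, and the summed immune level was 12.88 to 13.64 and 11.9 to 13.21. Those of 9 secretory epithelial markers (7 well above background on all 8 arrays, 13.67 to 15.02 and 13.9 to 15.15) and of 9 stromal and endothelial markers (5 well above, 10.56 to 11.17 and 10.5 to 11.04) also overlapped between the groups.

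The arrays fell into 4 runs, arrays that share a date tag in their deposited names, with 1 array of each condition in each. Runs 1 and 2 are called the earlier and runs 3 and 4 the later runs. The p31-43 replicates 1 to 4 lay in runs 1 to 4, MED-CTL replicate 1 in run 2, replicate 2 in run 1, and replicates 3 and 4 in runs 3 and 4. Taken over all probes, the MED-CTL and p31-43 arrays of 1 run had a median correlation of 0.9959, the MED-CTL arrays among themselves of 0.9828 and the p31-43 arrays of 0.9898.

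The MED-CTL arrays of the earlier runs stood apart. On both of them 61 probes were more than 2-fold below, and 8 more than 2-fold above, all 14 other arrays, PT and PT-G arrays included. The same count was 2 below and 0 above for the earlier p31-43 arrays, and 0 for each of the other 6 pairs of arrays of 1 condition and period. A probe for a transcript like ribosomal protein S2 (THC2270926) read 7.87 and 7.59 on MED-CTL replicates 1 and 2, 11.87 and 12.08 on replicates 3 and 4, and 11.83 to 12.26 on the p31-43 arrays. FTHL12, a ferritin heavy chain-like sequence, read 11.58, 11.53, 14.35 and 14.40 on the MED-CTL arrays and 14.43 to 14.73 on the p31-43 arrays. RPLP0P2, a ribosomal protein pseudogene, read 15.56, 15.56, 17.47 and 17.75, against 17.51 to 17.75. In each of these the later MED-CTL arrays lay near the p31-43 arrays and the earlier MED-CTL arrays lay far below. Of the 61 probes, 37 had no gene symbol and 2 reached a nominal p under 0.01, and 17 of the 20 largest rises of all probes were among them. What set these arrays apart was not tested. Where they move a printed difference at a nominal p under 0.01 by over 1.5 times, values without them, or by run, stand beside it. Many differences short of that p moved as much, and only some have these values. Without them, p31-43 arrays of both periods are set against MED-CTL arrays of the later runs alone. A gene whose level differs between periods is moved by that as well.

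By the limma test with all 4 conditions in 1 model, 165 probes had a nominal p under 0.01, the study's own threshold, which was 0.403% of those tested. They split into 62 higher (0.151%) and 103 lower (0.251%) with p31-43. With no difference at all, a p under 0.01 is expected for about 1% of probes, a share that 0.403% does not reach. After Benjamini-Hochberg adjustment 0 probes passed 0.05 (0%), and 881 were under 0.05 before it. The median absolute difference of the 165 was 0.40, and 7 exceeded 1. For 112 of them the groups did not overlap, as for 562 (1.37%) of all probes, and 152 went the same way in all 4 runs, as 6904 (16.8%) of all probes did. The small p that chose them favours both, so neither is counted as support. Those higher had a median level of 10.89 and those lower of 7.42, and 114 had a gene symbol. Leaving out 1 MED-CTL array gave 86 (replicate 2), 279 (replicate 3) or 331 (replicate 4). Without both earlier MED-CTL arrays all 165 kept their direction and 54 stayed under 0.01, where 0.678% of all probes were under it. A block for the run raised the count to 567 (1.38%), in which 288 were higher and 279 lower and 158 of the 165 were included. A replicate block from the numbers of the titles gave 431 (1.05%), of them 226 higher and 205 lower. The adjusted count was 0 with either block. The balance of directions moved with the arrays and the scaling. It was 158 higher and 121 lower with MED-CTL replicate 3 left out, 197 and 134 with replicate 4 left out, and 387 and 188 with array weights. It was 82 higher and 209 lower after median scaling, which moved the median of all probes by −0.08 on the log2 scale, and 14 higher and 143 lower with the background-subtracted signal, which moved it by −0.08.

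Most well-expressed genes could be bounded. Over the 26554 well-expressed probes, the median absolute difference was 0.107 on the log2 scale, and 56 probes differed by more than 1. The 95% confidence interval of the difference lay wholly within a 2-fold change for 24179 probes (91.1%) and within a 1.5-fold change for 15337 (57.8%). The median half-width was 0.413, a factor of 1.33. With the run as a block the median half-width fell to 0.255, a factor of 1.19, and 96.6% of intervals lay within 2-fold and 83% within 1.5-fold. Between 22668 and 24281 intervals lay within 2-fold when each array was left out in turn. Split by brightness into 4 sets of equal size, the dimmest (6.3 to 8) had 96.7% of its intervals within 2-fold, the next set, up to 9.95, 88.5%, the one above it, up to 12.05, 88.5%, and the brightest, up to 18.37, 90.6%. Without background correction a dim probe reads mostly background, so its ratio is drawn towards 1 and its interval does not bound the transcript as it does for a bright probe. For the 14428 probes not well above background on all 8 arrays 98.5% of intervals lay within 2-fold, with that limit. In 1 well-expressed probe the whole interval lay beyond 2-fold, the probe of C11orf37 described below.

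**Figure D1:**
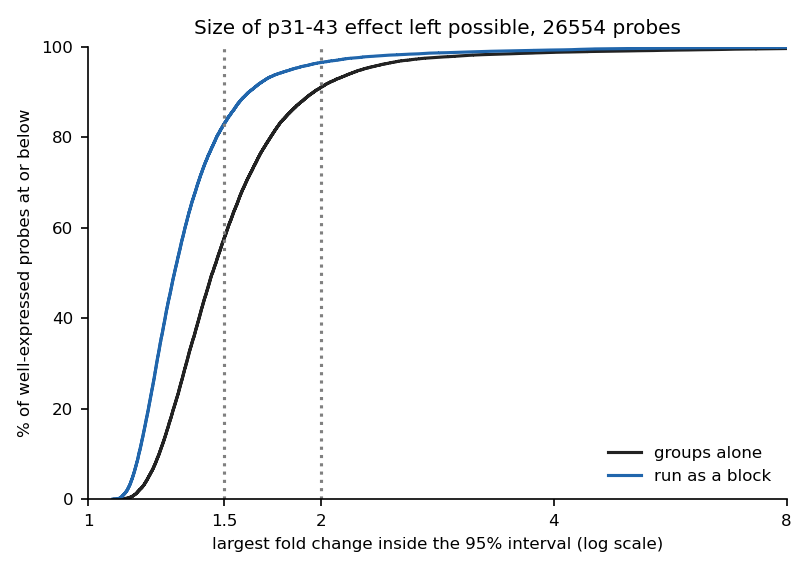
Share of the 26554 well-expressed probes (y axis, percent) whose 95% interval of the p31-43 minus MED-CTL difference reaches no further than the fold change on the x axis (log scale), from the fit of the 4 conditions alone (black) and with the run as a block (blue). The dotted lines mark 1.5-fold and 2-fold, which the black curve crosses at 57.8% and 91.1% and the blue curve at 83% and 96.6%.

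Genes tied to p31-43 in earlier work did not pass the test in the plain fit or with the run as a block. Of 32 such genes 30 were well expressed, and none passed the nominal threshold in either fit, plain or blocked by run (0.403% and 1.38% of all probes did). Their differences lay between −0.73 (CASP8) and 0.35 (MICA). The interval lay within 2-fold for 27 of the 30 well-expressed genes and within 1.5-fold for 14, and with the run as a block for 29 and 24. The exceptions at 2-fold were CASP8, EREG and OCLN. FAS and CXCL8 were not well above background on any MED-CTL or p31-43 array.

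The endosome is where the peptide is said to act. HGS, the ESCRT component that sorts receptors for degradation, read 15.95, 16.21, 16.02 and 15.58 on MED-CTL replicates 1 to 4 and 15.95, 15.81, 15.53 and 15.63 on p31-43 replicates 1 to 4. The groups overlapped, and the difference was −0.21 (95% interval −0.62 to 0.21). EEA1, the tethering factor of early endosomes, differed by −0.30 (−0.85 to 0.24), RAB5A, their small GTPase, by −0.08 (−0.50 to 0.35), and TFRC, the transferrin receptor that recycles through them, by −0.01 (−0.66 to 0.63). Of 24 endosomal sorting genes, all well expressed, 0 had a nominal p under 0.01, the differences ranged from −0.30 to 0.19 with a median of −0.04, and 23 intervals lay within 2-fold.

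In the EGF receptor pathway the receptor and its ligands were set beside their feedback genes. EGFR read 10.23, 10.62, 11.22 and 10.61 on the MED-CTL arrays and 10.25, 10.07, 10.96 and 10.54 on the p31-43 arrays. Within runs 1 to 4 p31-43 was lower by −0.37, −0.16, −0.26 and −0.07, though the groups overlapped. The difference of −0.22 (−0.73 to 0.30) did not pass the nominal threshold, nor did it with the run as a block (limma, adjusted p = 0.726). The ligand EREG was also lower in every run (−0.70, −0.10, −0.68 and −0.38 in runs 1 to 4, mean −0.46, −1.26 to 0.33) and did not pass the threshold either. AREG, another ligand, differed by −0.13 (−0.50 to 0.23), and HBEGF, also a ligand, by 0.16 (−0.11 to 0.43). ERRFI1, the receptor's feedback inhibitor, differed by −0.06 (−0.34 to 0.21), and SPRY4, an inhibitor of signalling downstream of it, by 0.11 (−0.30 to 0.52). Over 21 genes of the pathway 0 had a nominal p under 0.01, with a median of 0.01.

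Of interleukin-15 and the stress ligands, IL15 itself, an epithelial cytokine that activates intraepithelial lymphocytes, read 6.57, 6.72, 6.77 and 6.19 on the MED-CTL arrays and 6.77, 6.63, 6.42 and 6.49 on the p31-43 arrays, well above background on all 8. The groups overlapped and differed by 0.02 (−0.29 to 0.32). The probe lies at the low end of the dimmest set (6.3 to 8), so this interval does not bound the transcript as for a bright probe. MICA, a ligand of the NKG2D receptor, read 10.31, 10.25, 10.86 and 11.63 against 10.82, 10.81, 11.45 and 11.38. It was higher in runs 1, 2 and 3 by 0.57, 0.50 and 0.59 and lower in run 4 by −0.25, with a mean of 0.35 (−0.24 to 0.94). Without both earlier MED-CTL arrays the difference was −0.13. That fit keeps the earlier p31-43 arrays (10.82 and 10.81), which read lower than the later ones (11.45 and 11.38). Its sign therefore does not show a reversal. Runs 3 and 4, each set against its own MED-CTL array, gave 0.59 and −0.25, a mean still higher with p31-43 and short of the threshold. MICB, a related ligand, differed by −0.12 and HLA-E, a ligand of inhibitory receptors, by −0.14, and 0 of the 9 genes of this list had a nominal p under 0.01.

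RELA, the p65 subunit of NF-kB, read 10.49, 10.24, 9.78 and 9.86 on MED-CTL replicates 1 to 4 and 10.53, 10.51, 10.16 and 10.28 on p31-43 replicates 1 to 4. It was higher with p31-43 in each run, by 0.28, 0.02, 0.38 and 0.42 in runs 1 to 4, while the groups as a whole overlapped. The mean of 0.28 (−0.12 to 0.68, 1.21-fold) did not pass the nominal threshold, alone or with the run as a block (limma, adjusted p = 0.775). Without both earlier MED-CTL arrays it was 0.55, still short of the threshold. Targets of NF-kB stayed close to 0, with −0.21 (−0.72 to 0.31) for NFKBIA, the inhibitor of NF-kB, −0.04 for TNFAIP3, which limits the pathway, −0.06 for ICAM1, an adhesion molecule, and 0.03 for CCL20, a chemokine. Of the 24 NF-kB genes 0 had a nominal p under 0.01, and their median was −0.01. For Toll-like and interferon signalling the adaptor MYD88 differed by 0.23 (−0.33 to 0.79) and the antiviral GTPase MX1 by −0.01. None of 23 interferon response genes and none of 15 inflammasome and Toll-like receptor genes had a nominal p under 0.01.

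TGM2, tissue transglutaminase, the autoantigen of coeliac disease, differed by 0.00 (−0.41 to 0.41) and PPARG, a nuclear receptor said to be lost through it, by 0.02 (−0.41 to 0.45). The oxidative stress genes HMOX1 (−0.04, −0.31 to 0.23) and SOD2 (0.13, −0.31 to 0.56) and the unfolded protein response genes DDIT3 (0.02, −0.35 to 0.38) and HSPA5 (−0.13, −0.87 to 0.60) lay close to 0 as well. MKI67, a proliferation marker, differed by 0.00 (−0.50 to 0.51). Among the junction genes TJP1 differed by −0.15 (−0.60 to 0.30) and OCLN by −0.22 (−1.08 to 0.65), and CXCR3, a receptor reported to bind gliadin peptides, by 0.01 (−0.85 to 0.87). The initiator caspase CASP8 read 11.99, 12.03, 12.86 and 11.02 on the MED-CTL arrays and 12.24, 11.86, 10.55 and 10.35 on the p31-43 arrays. The fall came from the later runs, with −2.32 in run 3 and −0.67 in run 4 against 0.20 and −0.13 in runs 1 and 2, and the mean of −0.73 (−1.91 to 0.46) did not pass the nominal threshold. Its other 2 probes differed by −0.27 and −0.26. In none of the lists on TG2 and PPAR gamma (10 genes), oxidative stress (19), endoplasmic reticulum stress (19), heat shock (13 of 14 matched), apoptosis (25), barrier and tight junction (20) and cell cycle (22) did a gene pass the nominal threshold. Blocked by run, CALR, a chaperone of the endoplasmic reticulum, was lower by −0.27 and HSPE1, a mitochondrial chaperonin, higher by 0.33, both past the nominal threshold (limma, adjusted p = 0.667 for each).

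**Figure D2:**
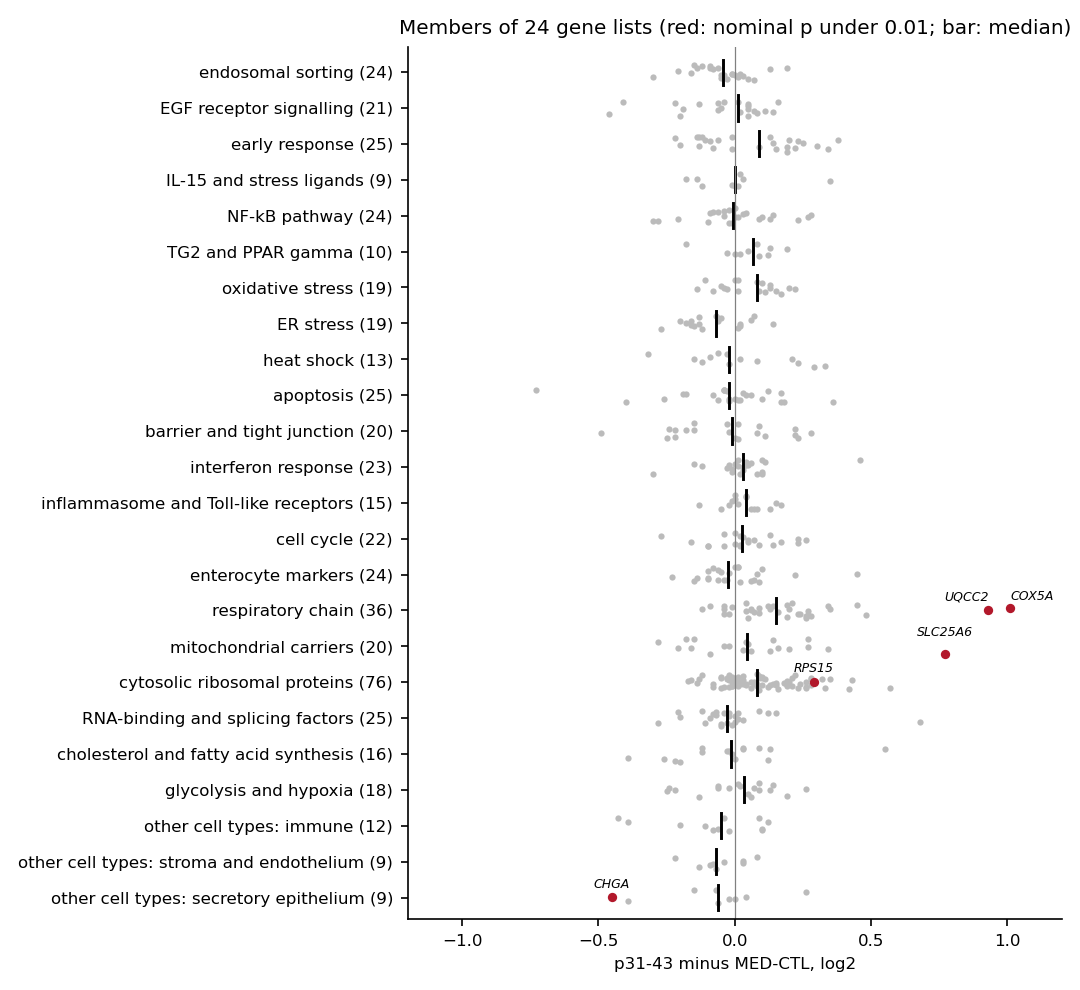
Each dot is 1 gene of 24 gene lists (rows, with the number of genes tested), by its p31-43 minus MED-CTL difference on the log2 scale (x axis). Black bars are list medians, between −0.07 and 0.15, and red dots the named genes COX5A, UQCC2, SLC25A6, RPS15 and CHGA, the 5 with a nominal p under 0.01.

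Of the 5 genes of these lists that passed the nominal threshold, 3 act in mitochondria. UQCC2, an assembly factor of respiratory complex III, read 12.18, 11.84, 12.71 and 13.08 on MED-CTL replicates 1 to 4 and 13.48, 13.61, 12.89 and 13.54 on p31-43 replicates 1 to 4. The earlier MED-CTL arrays were the lowest, and the groups overlapped through MED-CTL replicate 4 and p31-43 replicate 3. The difference was 0.93 (0.38 to 1.47), a factor of 1.90, past the nominal threshold (limma, adjusted p = 1). It was 1.64 and 1.43 in runs 1 and 2, and 0.18 and 0.46 in runs 3 and 4, and without both earlier MED-CTL arrays it was 0.49, short of the threshold. Against PT UQCC2 differed by 0.18 and against PT-G by 0.28, neither at an adjusted p under 0.05 (limma). By the study's qRT-PCR, UQCC2 (there MNF1) after p31-43 was at an average level comparable to untreated cells. COX5A, a subunit of cytochrome c oxidase, read 12.79, 13.18, 13.23 and 14.37 against 14.53, 14.56, 14.19 and 14.34. MED-CTL replicate 4 alone reached the level of the p31-43 arrays. The mean difference was 1.01 (0.39 to 1.63), past the nominal threshold (limma, adjusted p = 1), and the runs gave 1.36, 1.76, 0.95 and −0.03. The gene's other probe differed by 0.20.

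SLC25A6, an ADP/ATP carrier of the inner mitochondrial membrane, read 14.38, 13.84, 14.19 and 14.97 on the MED-CTL arrays and 15.15, 15.32, 14.83 and 15.17 on the p31-43 arrays. It was higher with p31-43 in every run, by 1.31, 0.94, 0.64 and 0.20 in runs 1 to 4, and by 0.77 on average (0.30 to 1.25, limma, adjusted p = 1). Without both earlier MED-CTL arrays the difference was 0.54, short of the threshold. Against PT SLC25A6 differed by −0.09 and against PT-G by 0.23, neither at an adjusted p under 0.05 (limma). Whether such rises belong to p31-43 or to the MED-CTL arrays was not tested. RALY, an RNA-binding protein of the hnRNP family, read 12.39, 12.15, 11.77 and 12.72 against 13.18, 13.08, 12.61 and 12.88. It was higher in every run, by 0.68 on average (0.16 to 1.2), and missed the threshold, which it passed with the run as a block (limma, adjusted p = 0.667). Its other probe, not well above background on all arrays, differed by −0.03. RALY differed by 0.11 from PT and by 0.43 from PT-G, neither at an adjusted p under 0.05 (limma). B2M, the light chain of HLA class I, differed by 0.03 (−0.20 to 0.27).

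Of the respiratory chain, 2 of 36 genes rose at the nominal threshold (5.56%, against 0.403% of all probes, or 0.151% counting rises) and none fell. The other 34 had nominal p-values above it. The lists were chosen with earlier results of these data known, that of UQCC2 among them, so the shares are description only. The median of the 36 was 0.15, where that of all probes was 0.00, and 29 were above 0 and 7 below. The list median was 0.09 in the earlier and 0.14 in the later runs, and it ranged from 0.04 with the background-subtracted signal to 0.21 without both earlier MED-CTL arrays. With the run as a block NDUFV1, a core subunit of complex I, also passed, at 0.34. Of 20 mitochondrial carriers 1 rose, SLC25A6, while its closest relatives SLC25A4 and SLC25A5 differed by 0.13 and 0.14, and the median was 0.04. Of 76 cytosolic ribosomal protein genes 1 rose, RPS15, from 16.89, 16.54, 16.51 and 16.46 to 16.89, 16.90, 16.76 and 17, by 0.29 (0.09 to 0.49, limma, adjusted p = 1). The ribosomal median was 0.08, with 55 genes above 0 and 21 below, and between −0.11 and 0.11 across the alternatives, so that its sign followed the scaling. None of 25 RNA-binding and splicing factors, 16 genes of cholesterol and fatty acid synthesis and 18 of glycolysis and hypoxia had a nominal p under 0.01, and list medians lay between −0.03 and 0.03. With the run as a block RALY of the first list and HK1, a hexokinase of the last, passed, HK1 at 0.26 (limma, adjusted p = 0.716).

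**Figure D3:**
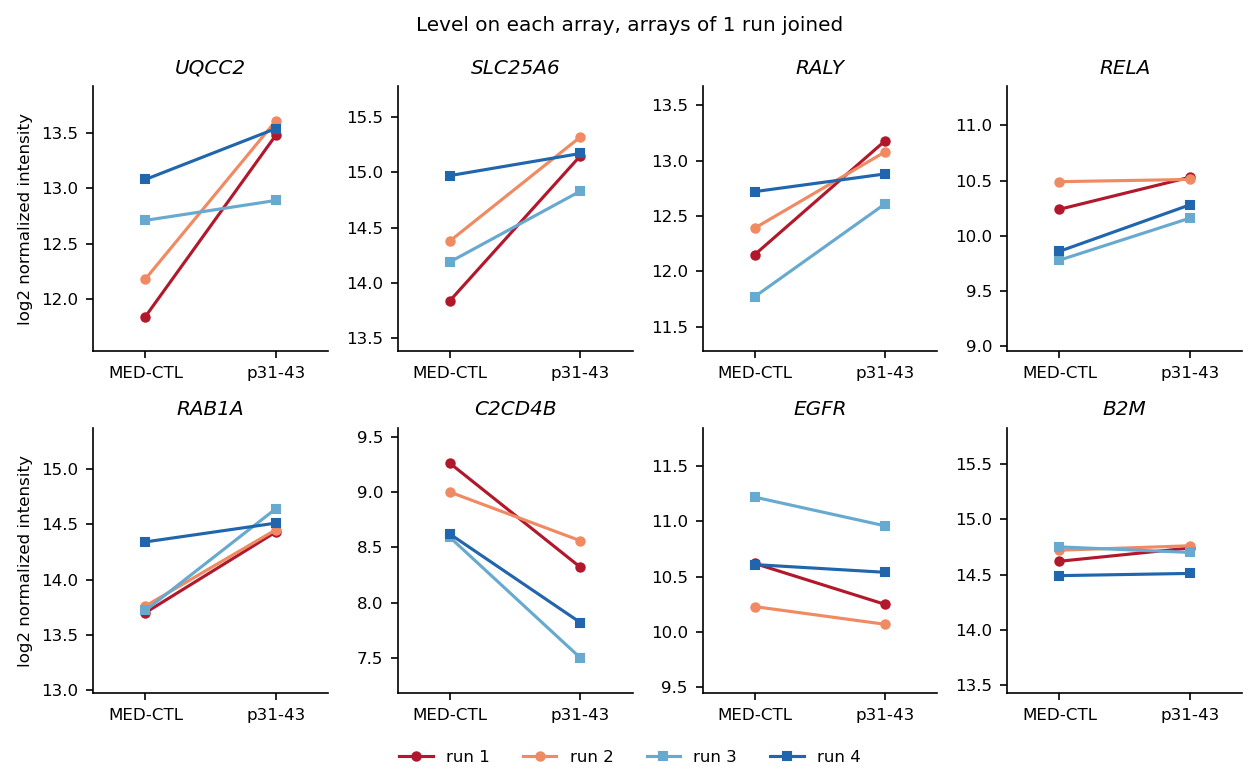
Log2 normalised intensity (y axis, the same span in each panel) of 8 genes on every MED-CTL and p31-43 array, with the arrays of 1 run joined by a line. UQCC2, SLC25A6 and RALY rise most steeply in run 1 (red) and least in run 3 or 4 (blue squares), C2CD4B falls in all 4 runs, and B2M is level.

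Beyond the lists, 17 well-expressed genes with a symbol had a nominal p under 0.01, no overlap between the groups and a higher level with p31-43, and the 10 of largest difference are named here. As non-overlap chose them, it is not counted as a result. Nor is the same direction in every run, which non-overlap fixes. RAB1A, a small GTPase of transport from the endoplasmic reticulum to the Golgi, read 13.76, 13.70, 13.72 and 14.34 on MED-CTL replicates 1 to 4 and 14.43, 14.45, 14.64 and 14.51 on p31-43 replicates 1 to 4. It was higher by 0.63 (0.36 to 0.89, limma, adjusted p = 1), and by 0.48 without both earlier MED-CTL arrays. Its other 2 probes, both well expressed, differed by −0.01 and 0.20. DENND1A, an exchange factor for endocytic Rab proteins, read 8.71, 8.20, 8.18 and 8.86 against 9.08, 9.05, 8.95 and 9.23. The mean difference was 0.59 (0.27 to 0.91), and its other 2 probes differed by 0.07 and 0.08. SRP9, a subunit of the signal recognition particle, was higher by 0.42 (0.19 to 0.65) and differed by 0.43, 0.20, 0.54 and 0.51 in runs 1 to 4, while its other 3 probes ranged from −0.15 to 0.27.

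TTC15, an older name of TRAPPC12, a subunit of a tethering complex, rested on the earlier runs. It read 8.38, 8.11, 9.54 and 9.68 on the MED-CTL arrays and 10.00, 10.18, 9.74 and 10.01 on the p31-43 arrays. The later MED-CTL arrays lay just below the p31-43 arrays and the earlier ones far below, with 1.89, 1.80, 0.20 and 0.34 in runs 1 to 4 and a mean of 1.06 (0.44 to 1.68). A separate probe named TRAPPC12 differed by 0.15. ECSIT, an adaptor of Toll-like receptor signalling that also takes part in complex I assembly, was higher by 0.59 (0.30 to 0.88), in runs 1 to 4 by 0.94, 0.85, 0.40 and 0.17. ERCC2, a helicase of the transcription and repair factor TFIIH, was higher by 0.51, REXO2, a mitochondrial exonuclease of short RNA, by 0.49, CCDC167 by 0.44 and TRIM14, an adaptor of antiviral signalling, by 0.42. These were 0.31, 0.25, 0.22 and 0.33 without both earlier MED-CTL arrays. DNAAF5, a factor in the assembly of ciliary dynein, read 12.11, 12.06, 11.87 and 12.16 against 12.68, 12.43, 12.68 and 12.30. It was higher by 0.48 (0.24 to 0.71). Without both earlier MED-CTL arrays all 10 stayed above 0 and 4 kept a nominal p under 0.01, RAB1A, DENND1A, DNAAF5 and SRP9. In the later runs alone, with 3 residual degrees of freedom, none of the 10 had it, while RAB1A differed by 0.55 there, DENND1A by 0.57, SRP9 by 0.53 and DNAAF5 by 0.48, against 0.71, 0.61, 0.31 and 0.47 in the earlier runs. From PT the 10 differed by −0.10 (DENND1A) to 0.18 (SRP9), and from PT-G by 0.02 (TTC15 and DENND1A) to 0.32 (ERCC2). None of these had an adjusted p under 0.05 (limma).

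Lower with p31-43 under the same rule were 41 genes, and the 10 of largest fall are named. The largest was C11orf37, whose probe read 14.43, 14.73 and 8.34 on MED-CTL replicates 1 to 3 and 7.44, 7.27 and 6.53 on p31-43 replicates 1 to 3. Replicate 4 was marked as an outlier on both sides and left out of the fit. The earlier MED-CTL arrays lay far above every other array, and the difference of −5.42 (−8.28 to −2.57) became −1.26 without them, while the gene's other probe differed by −0.02. PRM3, a protamine of sperm, read 9.79, 9.98, 8.52 and 8.14 against 8.12, 8.08, 7.64 and 7.30, and the earlier MED-CTL arrays were again the highest. It was lower by −1.32 (−2.04 to −0.61), and by −0.55 without them. OR4D2, an olfactory receptor, was lower by −0.92 and SLAMF9, an immune cell surface receptor, by −0.61. LCE2C of the epidermal cornified envelope was lower by −0.58 and HCRT, the precursor of a hypothalamic neuropeptide, by −0.52. Without both earlier MED-CTL arrays OR4D2, SLAMF9, LCE2C and HCRT differed by −0.30, −0.37, −0.42 and −0.26.

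C2CD4B, a nuclear factor induced by inflammatory cytokines, read 9.0, 9.26, 8.59 and 8.62 on MED-CTL replicates 1 to 4 and 8.32, 8.56, 7.50 and 7.82 on p31-43 replicates 1 to 4. The differences in runs 1 to 4 were −0.93, −0.45, −1.08 and −0.80. The mean was −0.82 (−1.30 to −0.33), and with the run as a block it had the smallest p of these genes (limma, adjusted p = 0.447). The later runs alone gave −0.94. KRT14, a keratin of basal epithelium, read 7.61, 7.94, 7.86 and 7.58 against 7.39, 7.33, 6.99 and 7.21, and was lower by −0.51 (−0.74 to −0.29), with −0.49 without both earlier MED-CTL arrays. Its other probe, not well above background on all 8 arrays, differed by 0.09. MESP1, a transcription factor of early mesoderm, was lower by −0.46 in the mean and by −0.41 and −0.51 in the earlier and later runs, with its other, well-expressed probe at 0.11. ALPG, a germ-cell alkaline phosphatase, was lower by −0.46 (−0.76 to −0.16). Without both earlier MED-CTL arrays all 10 stayed below 0 and KRT14, MESP1 and ALPG kept a nominal p under 0.01, and in the later runs alone PRM3, C2CD4B and MESP1 had it, leaving aside C11orf37, which has 1 array per group there. From PT the 10 differed by −0.43 (ALPG) to 0.07 (C11orf37), with C2CD4B at −0.06. From PT-G they differed by −0.51 (PRM3) to 0.12 (C11orf37), with C2CD4B at −0.31. None of these had an adjusted p under 0.05 (limma).

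Agreement between runs picked out partly other genes. Of 1853 well-expressed genes higher and 1642 lower in all 4 runs, those with the smallest p under the run block were CRLS1, MPST, ZCCHC2, TEX10 and CIART among the higher and C2CD4B, MESP1, LZTR2, CHGA and KRT14 among the lower. CRLS1, the mitochondrial cardiolipin synthase, read 14.70, 14.61, 14.93 and 14.97 on the MED-CTL arrays and 15.01, 15.04, 15.13 and 15.18 on the p31-43 arrays, and was higher by 0.29 (0.09 to 0.49), which became 0.14, short of the threshold, without both earlier MED-CTL arrays. MPST, a mitochondrial sulfurtransferase, was higher by 0.56, 0.44, 0.43 and 0.34 in runs 1 to 4, and passed the nominal threshold with the block but not without it. CIART, a repressor of the circadian clock, was higher by 0.37, and TEX10, a factor of ribosome biogenesis, by 0.28, which became −0.07 without both earlier MED-CTL arrays. TEX10 read lower in the earlier runs, whose p31-43 arrays stay in that fit, so the sign does not show a reversal. Within each later run TEX10 was higher with p31-43. CHGA, the granule protein of enteroendocrine cells, read 7.68, 7.93, 7.61 and 7.70 against 7.37, 7.27, 7.23 and 7.25. It was lower in each run by between −0.56 and −0.38, with a mean of −0.45 (−0.63 to −0.26, limma, adjusted p = 1). CHGA was the 1 gene of 9 secretory epithelial markers under the threshold (11.1%, against 0.403% of all probes, or 0.251% counting falls), and the other 8 differed by −0.39 to 0.26. In bulk RNA, fewer cells of a type and less RNA per cell cannot be told apart. Every adjusted p of these genes with the block was 0.447. From PT CRLS1 differed by 0.28, CIART by 0.08, TEX10 by −0.13, MPST by −0.27 and CHGA by −0.29, none at an adjusted p under 0.05 (limma).

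Among 20 named probes with a nominal p under 0.01 that were not well above background on all 8 arrays, MS4A15, a membrane protein of the MS4A family, differed most. It read 6.09, 6.03, 6.14 and 6.14 on the MED-CTL arrays, 1 of them well above background, and 7.06, 6.24, 7.41 and 7.07 on the p31-43 arrays, 3 of them well above. The p31-43 arrays were all higher, p31-43 replicate 2 only just, and the difference was 0.84 (0.46 to 1.22), with 0.80 without both earlier MED-CTL arrays and 2.66 with the background-subtracted signal. Against PT, at 5.92 to 6.24, it was 0.82 (limma, adjusted p = 0.0508), and against PT-G 0.77 (limma, adjusted p = 0.0542). INPP5B, an inositol phosphatase well above background on 2 of the MED-CTL arrays, differed by 0.48, and GNG8, a G protein subunit well above background on 2 of the p31-43 arrays, by −0.43. The differences were 0.18 and −0.17 without both earlier MED-CTL arrays, short of the threshold, and with the background-subtracted signal 1.71 and −1.58. IL17F, an inflammatory cytokine, read 6.32, 6.12, 6.56 and 6.65 on the MED-CTL arrays, 2 of them well above background, and 5.94 to 6.01 on the p31-43 arrays, none of them well above. It was at least 1.31-fold lower with p31-43 (limma, adjusted p = 1), a bound that puts the lowest signal well above background in place of a dimmer one.

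Early response genes, the transcription factors and feedback phosphatases that growth factors switch on first, were read for p31-43 against all 3 other conditions. The comparisons share the p31-43 arrays and are given side by side. As the gene lists were chosen with earlier results of these data known, the shares of all probes beside the counts are description only. Against MED-CTL the 25 genes differed by −0.22 (DUSP6) to 0.38 (FOS), 0 had a nominal p under 0.01, and the median was 0.09. Against PT 12 of the 25 were lower with p31-43 at an adjusted p under 0.05 (limma), where 0.41% of all probes were lower, and against PT-G 14 of the 25, where 0.686% were. None was higher in either, where 0.339% and 0.464% of all probes were. The medians were −0.93 and −1.14.

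IER3, an early response gene that restrains apoptosis, read 11.93, 11.25, 11.10 and 11.90 on the MED-CTL arrays, 11.72, 12.18, 11.10 and 11.93 on the p31-43 arrays, 14.17 to 14.62 on the PT arrays and 14.19 to 14.78 on the PT-G arrays. The p31-43 and MED-CTL arrays intermingled, and both lay far below the digests. The difference from MED-CTL was 0.19 (−0.32 to 0.69) and that from PT −2.61 (limma, adjusted p = 0.000163). DUSP5, a phosphatase of ERK, read 9.65, 10.08, 9.67 and 9.29 on the p31-43 arrays, 9.54 to 10.30 on the MED-CTL arrays and 11.29 to 11.69 on the PT arrays, with −0.12 against MED-CTL and −1.76 against PT (limma, adjusted p = 0.000392). EGR3, a zinc finger transcription factor, was −2.46 against PT (limma, adjusted p = 0.00408) and 0.13 (−0.61 to 0.86) against MED-CTL. FOS and EGR1, whose transcripts are short-lived, were not among the 12. EGR1 read 14.46, 13.38, 15.92 and 13.75 on the MED-CTL arrays alone, and its difference from MED-CTL was −0.08 (−1.24 to 1.08). The count of 12 fell to 7 without p31-43 replicate 1, 3 or 4, and to 0 in a fit of the later runs alone, in which no probe of all tested passed. IER3 read 11.10 and 11.93 on the later p31-43 arrays and 14.34 and 14.62 on the later PT arrays.

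Other lists differed from the digests in the same comparison. Of 21 EGF receptor genes 5 were lower than PT and 6 lower than PT-G (0.41% and 0.686% of all probes were), among them HBEGF by −0.85 (limma, adjusted p = 0.00527) and ERRFI1 by −1.06 (limma, adjusted p = 0.00192) against PT. Of 24 NF-kB genes 3 were lower than PT and 4 lower than PT-G, against the same shares of all probes. ICAM1 read 11.06 to 11.33 on the p31-43 arrays, 11.14 to 11.29 on the MED-CTL arrays and 11.86 to 12.03 on the PT arrays, and CCL20 was −1.10 against PT (limma, adjusted p = 0.0339). CXCL8, a neutrophil chemokine, was well above background on every PT and PT-G array. By the bound used for IL17F, its p31-43 mean lay at least 1.68-fold below that of PT (limma, adjusted p = 0.0172). It lay at least 1.71-fold below that of PT-G (limma, adjusted p = 0.0115). HSPA6, an inducible heat shock protein, was −1.62 against PT (limma, adjusted p = 0.00307) and −0.09 (−0.55 to 0.37) against MED-CTL. In ICAM1 and HSPA6 the p31-43 arrays overlapped the MED-CTL arrays and lay apart from the PT arrays. CLDN3, a claudin of tight junctions, was lower than PT by −0.56 (limma, adjusted p = 0.0048), and against MED-CTL it differed by −0.22 (−0.39 to −0.05), short of the threshold, with its other probe at 0.07.

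**Figure D4:**
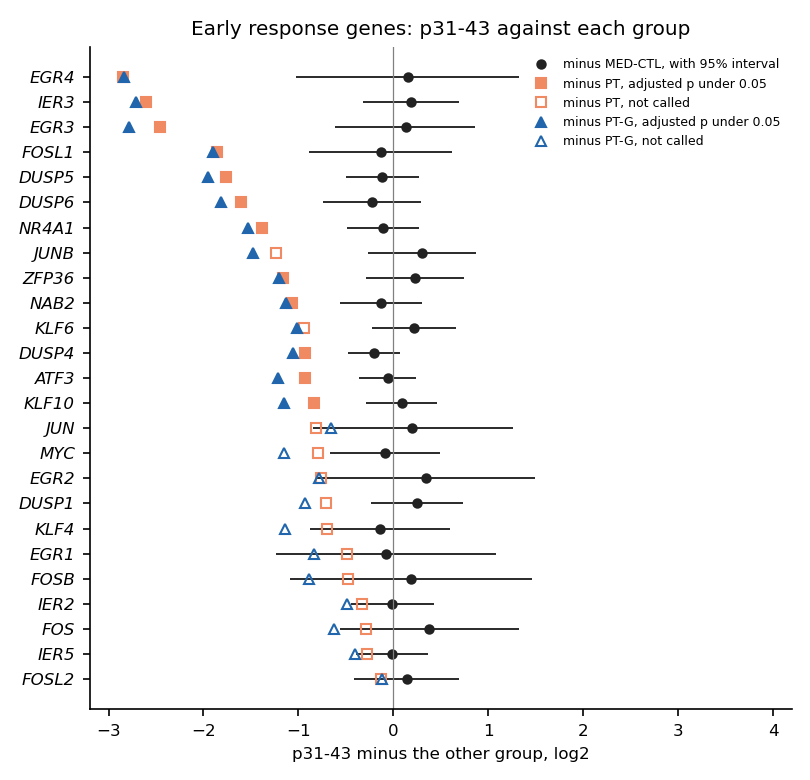
Difference of p31-43 from MED-CTL (black, with 95% intervals), PT (squares) and PT-G (triangles) for 25 early response genes, on the log2 scale (x axis), filled where the adjusted p was under 0.05. The black points lie between −0.22 and 0.38, and the filled squares and triangles, 12 and 14, all lie below 0.

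Runs differed in what they showed. Fitted with the run as a block, the earlier runs alone gave 446 probes (1.09%) at an adjusted p under 0.05, 401 of them higher and 45 lower with p31-43, with 3 residual degrees of freedom. The later runs alone gave 0, with 87 (0.212%) at a nominal p under 0.01, 12 higher and 75 lower, and 844 under 0.05. In the later runs 272 of the 446 (61%) had the same sign as in the earlier runs, as had 60% of all well-expressed probes, and 3 of them a nominal p under 0.01. The median absolute difference of the 446 was 0.79 in the earlier runs, which chose them, and 0.07 in the same direction in the later runs. UQCC2 (1.53, adjusted p = 0.00124, limma), SLC25A6 (1.12, adjusted p = 0.0153), RALY (0.86, adjusted p = 0.0172) and MICA (0.54, adjusted p = 0.0197) were among the 446, gave 0.32, 0.42, 0.50 and 0.17 in the later runs, none past the nominal threshold. The correlation of earlier and later differences across the 26554 well-expressed probes, given as a description, was 0.173 for p31-43 minus MED-CTL, 0.26 for p31-43 minus PT and 0.587 for p31-43 minus PT-G. The arrays of a period share their runs, and probes are not independent.

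The change of the p31-43 effect from the earlier to the later runs was tested directly. It had an adjusted p under 0.05 (limma) in 26 probes (0.0634%), of which 25 had the effect nearer to 0 in the later runs, and 21 of the 26 had both earlier MED-CTL arrays below the 14 others. TTC15, C11orf37, FTHL12, RPLP0P2 and the probe THC2270926 were among them, and UQCC2, SLC25A6 and RALY were not. The count was 126 or 140 when MED-CTL replicate 3 or 4 was left out and 59 (0.144%) with the run as a block. What made the periods differ was not tested.

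**Figure D5:**
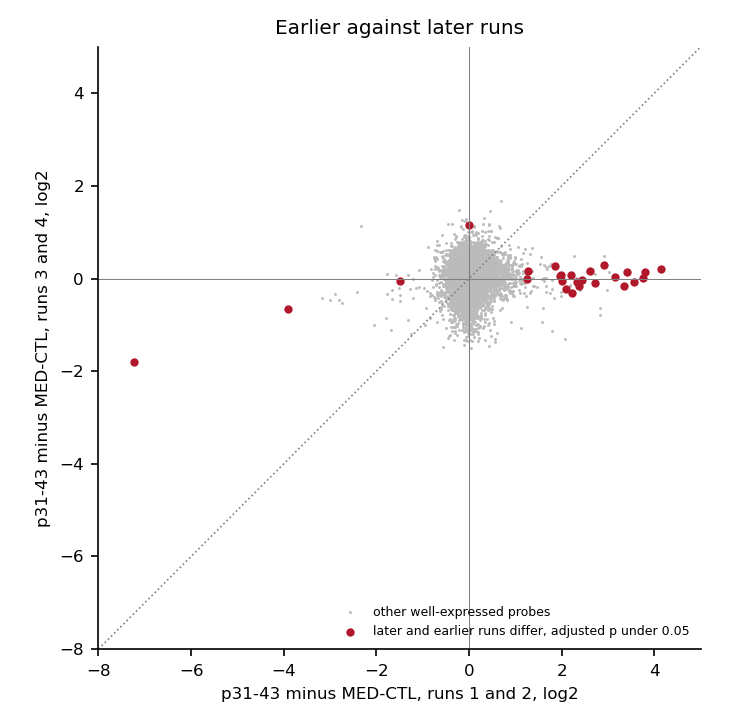
P31-43 minus MED-CTL difference of each well-expressed probe (log2) in runs 1 and 2 (x axis) and in runs 3 and 4 (y axis), with the 26 probes whose effects differ between the periods at an adjusted p under 0.05 in red. Most red points lie far to the right near 0 on the y axis, that is, higher with p31-43 in the earlier runs alone, and the dotted line marks equal effects.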

How the data were processed

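RNA of 16 Caco-2 cultures, 4 for every condition, was hybridised to single-colour Agilent arrays. The authors' image analysis (Agilent Feature Extraction 9.5.3.1, per the labels) gave the intensity of every spot on a linear scale. The deposited log2 values equalled the log2 median foreground intensity after quantile normalisation of all spots, without background correction, to within 5e-09. Depth is signal over background here, and the number of arrays limits precision. Spots marked as outliers (0.256%) were left out and spots of a probe averaged, and 18 probes left with under 3 arrays in any condition were not tested. A single limma model (version 3.58.1, under R 4.3.3) of all 4 conditions was fitted to the 40982 others, with 2-sided moderated tests on 12 residual degrees of freedom, to which the prior added 1.9, and the p-values were adjusted by Benjamini-Hochberg. Intervals are at 95%. The model was checked on simulated data. The members and gene lists were chosen with earlier results of these data known.

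Current RefSeq symbols were found for 23453 probes. Where a gene had more than 1 probe, the brightest stood for it. Named were 36 genes tied to p31-43 or to the study, the 10 largest rises and 10 largest falls among well-expressed genes with a nominal p under 0.01 and no overlap, the 5 higher and 5 lower in all 4 runs of smallest p with the run as a block, and the 5 largest changes among dimmer probes. COX5A, RPS15, SPRY4 and other list members are named outside that rule, and some genes that the rule or the lists hold are not reported here. Of 517 listed genes 514 matched. Same-numbered arrays of both groups deviated together from their group means (correlations 0.307, 0.262, 0.653 and 0.706), as did those of 1 run (0.538, 0.685, 0.653 and 0.706).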

Additional observations from a re-analysis of the deposited data

Results flagged for a closer look

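Among the named genes given here, 3 groups of 4 arrays held 1 array far from the other 3, where the gap to the nearest array, divided by the range of the group, exceeded the critical value of Dixon's test at 95%. Chance alone marks about 1 in 20 groups in this way. NFKBIA had a gap of 0.849 on the p31-43 arrays, where replicate 4 was low at 13.83 against 14.23 to 14.31. HCRT had 0.909 on the p31-43 arrays, with replicate 3 low at 10.41. RAB1A had 0.899 on the MED-CTL arrays, with replicate 4 high at 14.34.

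The p31-43 effect differed between the later and the earlier runs for 26 probes at an adjusted p under 0.05 (limma). For TTC15 the later minus the earlier effect was −1.58 (limma, adjusted p = 0.0262), from 1.85 in the earlier to 0.27 in the later runs. For C11orf37 it was 5.42 (limma, adjusted p = 0.016), from −7.23 to −1.81, with 1 array per condition in the later runs.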

How the results depend on the processing

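The count of 165 probes at a nominal p under 0.01 was 291 with median scaling, 80 when the model was fitted to the probes well above background on all 8 arrays alone (134 of the 165 were among those probes), 80 with the MED-CTL and p31-43 arrays alone, 1526 and 887 with the slide as a fixed or a random block and 575 with array weights. A block for the run gave 567, and, in combinations chosen after seeing the data, 527 with the block and both groups alone, 707 with the background-subtracted signal, 818 with median scaling and 550 with normexp. With the block it was 331 without run 2, 977 without run 3, 675 without run 4, 87 without the earlier and 1480 without the later runs, and without both earlier MED-CTL arrays 278. Same-numbered arrays deviated together, and with these numbers as a replicate block it was 431. Leaving out 1 array gave 86 to 331. The adjusted count of 0 was 446 without the later runs, 1 without run 3, and 0 to 4 without 1 array (4 when MED-CTL replicate 4 was out, 1 when MED-CTL replicate 3 or p31-43 replicate 2 was), and 0 with the replicate block. The count of intervals within 2-fold stayed within 1.5 times in each setting. The 12 early response genes lower than PT were 0 without the earlier runs and 7 to 13 without 1 array. The 26 probes differing between periods were 59 with the run and 80 with the slide as a random block, and 21 to 140 without 1 array. The causes were not tested. No named gene called at a nominal p under 0.01 turned its direction in any setting. Dim probes limit what can be bounded.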
